A study of Mus musculus with 9 samples.

Results

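The prostaglandin and leukotriene pathway enzymes convert a membrane fatty acid into short-range lipid signals and clear them again. Of 10 such genes, 9 had a probe set among the 19505 named genes of the array. The level of Ptgs1 was not analysed here. Each of the 9 had 1 probe set, and 7 passed a filter that kept genes whose mean over all arrays was at least 5.66 on the log2 scale, the median of all probe-set means. Alox15 and Ptges lay below it. The genes were selected on measured values, namely their log2 levels by treatment group and by the number in the array titles, so those levels are described and not tested.

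RNA of macrophages grown from wildtype C57BL/6 bone marrow was measured on 9 arrays, 3 in each of 3 groups. One group had 150 ng/ml recombinant mouse LCN2 (lipocalin 2, a secreted protein that binds iron-carrying bacterial siderophores) from day 0 of a 7-day culture. A second group had LCN2 from day 7, at a dose that is not given for that group, and the last group had vehicle. All cells grew with 10% serum and with M-CSF, the growth factor of macrophages, which is stated as 10 ng/ml in one place and as 20 ng/ml in another. All received 20 ng/ml interleukin 4 (IL-4), which drives the alternative, anti-inflammatory macrophage state, for 24 h. The age of the mice is not given, and neither is the origin of the 3 arrays of a group, from different mice, cultures or one pool. Errors and p-values therefore measure the spread between these samples alone, and that spread may be technical.

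Phospholipases free arachidonic acid from membranes, and 2 families of enzymes then oxygenate it. Cyclooxygenases (Ptgs1, Ptgs2) make the precursor that Ptges turns into prostaglandin E2 and Hpgds into prostaglandin D2, while Hpgd oxidises and so inactivates prostaglandins. The lipoxygenase Alox5, helped by its partner Alox5ap, makes leukotriene A4, which Lta4h turns into leukotriene B4 and Ltc4s into leukotriene C4. Alox15 is a separate lipoxygenase, known as an IL-4 induced gene of human monocytes and as a marker of resident peritoneal macrophages in mice. Ltc4s, Alox5ap and Ptges encode small membrane proteins of 1 family.

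The macrophage markers Adgre1 and Csf1r were bright on every array (11.62 to 11.97 and 11.97 to 12.16 on the log2 scale), as was the IL-4 target gene Arg1 (11.03 to 12.15). The mean level of 11 macrophage markers was 10.93 to 10.99 on the arrays numbered 1 and 10.66 to 10.82 on those numbered 2 and 3. That of 17 IL-4 response genes was 9.55 to 9.85 and 9.37 to 9.50, so both list means were higher on number 1 without overlap. Gene by gene both lists were mixed. Of the IL-4 response genes, 9 lay above 0 and 8 below 0 on number 1, with a median difference of 0.01. Limma called 6 of these 17 higher and 3 lower at an adjusted p under 0.05. Of the macrophage markers, 7 lay above 0 and 4 below 0, and 4 were called higher and 1 lower. Of all 10042 genes tested, 11.9% were called higher and 23.6% lower on number 1. The arrays numbered 1 stood apart from those numbered 2 and 3 in every group, on the first principal component, which took 62.5% of the variance. The titles do not say what the number stands for. On the arrays numbered 1 the mean level of 5 monocyte markers was 6.50 to 7.10, against 7.89 to 8.25 on the arrays numbered 2 and 3. For 13 neutrophil markers it was 5.98 to 6.46 against 6.97 to 7.35, and for 18 cell cycle genes 7.92 to 8.52 against 8.93 to 9.26. Mast cell and basophil markers ran from 4.83 to 5.15 on the arrays numbered 1 and from 4.65 to 4.97 on the others. Of 12, 3 lay above the filter, and the defining genes Ms4a2, Kit and Fcer1a read 4.78 or lower throughout. Of the 3 above the filter, 2 were higher on number 1 (median difference 0.36), and limma called 1 higher and 0 lower. All 3 had a higher mean with LCN2 from day 0 than with vehicle, by a median of 0.20, and 0 were called. Of 7 eosinophil markers, 2 lay above the filter, and the list ran from 5.33 to 5.57 against 5.63 to 5.84. The part of these markers in the results below was not tested.

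Hpgd, the prostaglandin-inactivating dehydrogenase, differed most between arrays of all the enzymes. Its log2 level was 5.11, 8.24 and 7.87 on arrays 1, 2 and 3 of LCN2 from day 0, 4.84, 7.27 and 7.41 on those of LCN2 from day 7, and 4.99, 7.47 and 7.40 on those of vehicle. In each group the array numbered 1 was low and the other two were high, and the lowest of the 6 arrays numbered 2 or 3 stood 2.16 above the highest numbered 1. Hpgd averaged 4.98 ± 0.14 on the arrays numbered 1 (SD, n = 3) and 7.61 ± 0.37 on the arrays numbered 2 and 3 (SD, n = 6). The difference of -2.63 ± 0.12 (SE) is a level 6.20-fold lower on number 1, and 2 of 10042 genes tested had a lower value. On those 3 arrays Hpgd lay below the filter, so it was kept through the arrays where it was high.

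Ptgs2, the inducible cyclooxygenase, ran the other way. Its level was 6.81, 5.77 and 5.76 on arrays 1, 2 and 3 of LCN2 from day 0, 6.62, 5.63 and 5.43 on those of LCN2 from day 7, and 6.39, 5.40 and 5.61 on those of vehicle. The array numbered 1 was the highest of its group each time, and Ptgs2 was 2.01-fold higher on number 1 (log2 difference 1.01 ± 0.09, SE). The gap to the highest array numbered 2 or 3 was 0.63. On 4 of the 6 arrays numbered 2 or 3 Ptgs2 lay below the filter, so it was kept through the arrays numbered 1, and the fold is set against a dim level.

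Ptges, which makes prostaglandin E2, was dim on all 9 arrays. It read 4.83, 4.56 and 4.86 in LCN2 from day 0, 5.34, 4.84 and 4.62 in LCN2 from day 7, and 5.19, 4.43 and 4.85 in vehicle. The array numbered 1 was highest in the day 7 and vehicle groups and not in the day 0 group, and the numbers overlapped.

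Hpgds, the prostaglandin D2 synthase of blood cells, was bright and shared the direction of Hpgd. It read 9.89, 10.52 and 10.42 in LCN2 from day 0, 9.61, 10.00 and 10.23 in LCN2 from day 7, and 9.43, 10.12 and 10.20 in vehicle. The lowest array of each group was the one numbered 1, and the difference of -0.60 ± 0.09 (SE) is a level 1.52-fold lower.

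**Figure D1:**
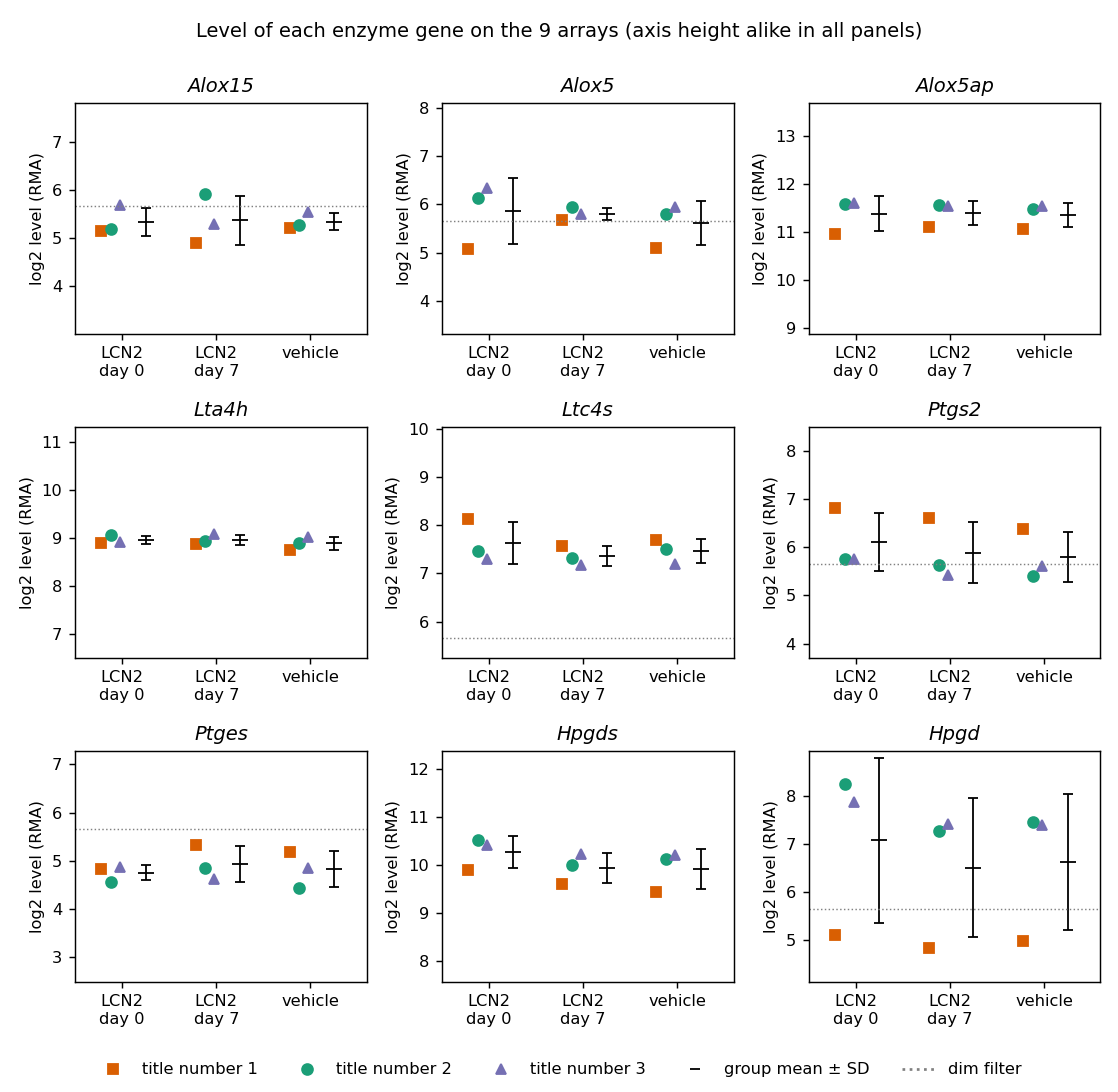
Log2 level of 9 enzyme genes on each array, with groups along the horizontal axis, colour and shape for the number in the array title, bars for the group mean ± SD (n = 3) and a dotted line at the filter of 5.66. Hpgd reads 4.84 to 5.11 on the arrays numbered 1 and 7.27 to 8.24 on the other 6, while Ptgs2 is highest on the arrays numbered 1.

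In the leukotriene branch, Alox5 was close to the filter, and below it on 2 of the 3 arrays numbered 1. Its mean was 5.28 on number 1 and 5.99 on the others, so it was kept through the arrays numbered 2 and 3. It read 5.07, 6.14 and 6.35 in LCN2 from day 0, 5.67, 5.94 and 5.80 in LCN2 from day 7, and 5.09, 5.79 and 5.94 in vehicle. The arrays numbered 1 were low in each group, by 1.17 in the day 0 group, 0.20 in the day 7 group and 0.78 in vehicle, so the day 7 group showed the smallest step.

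Alox5ap, the membrane partner that presents arachidonic acid to Alox5, was bright. It read 10.95, 11.58 and 11.61 in LCN2 from day 0, 11.10, 11.55 and 11.53 in LCN2 from day 7, and 11.07, 11.47 and 11.53 in vehicle. Its 6 arrays numbered 2 or 3 lay within 11.47 to 11.61, and its 3 numbered 1 within 10.95 to 11.10, a difference of -0.50 ± 0.07 (SE).

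Of the enzymes that use leukotriene A4, Lta4h was the steadiest gene, with all 9 arrays between 8.75 and 9.08. Ltc4s, the leukotriene C4 synthase, read 8.13, 7.46 and 7.30 in LCN2 from day 0, 7.58, 7.32 and 7.17 in LCN2 from day 7, and 7.70, 7.50 and 7.21 in vehicle. Like Ptgs2, Ltc4s was highest on the array numbered 1 of each group, by 0.47 ± 0.11 (log2 difference, SE), or 1.39-fold.

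Alox15 was dim in these IL-4 treated cells. It read 5.14, 5.18 and 5.68 in LCN2 from day 0, 4.90, 5.91 and 5.30 in LCN2 from day 7, and 5.21, 5.27 and 5.54 in vehicle. Only 2 of the 9 arrays, number 2 of the day 7 group and number 3 of the day 0 group, exceeded the filter, and the title numbers overlapped.

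Over the 7 enzymes that passed the filter, limma called 6 between the title numbers at an adjusted p under 0.05, 4 lower and 2 higher on number 1, where 35.5% of all 10042 genes tested were called (23.6% lower and 11.9% higher). Lta4h was the 1 not called. Without LCN2 day 0 replicate 1, 5 were called and Ltc4s was not. The arrays numbered 1 did not overlap with the others for 7 of 7, against 35.4% of all genes tested. The median difference of the 7 was -0.50 and that of all genes tested -0.06. These contrasts helped choose the genes, so the counts describe them and add no support. In such bulk samples, fewer cells of a type and less RNA per cell cannot be told apart.

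**Figure D2:**
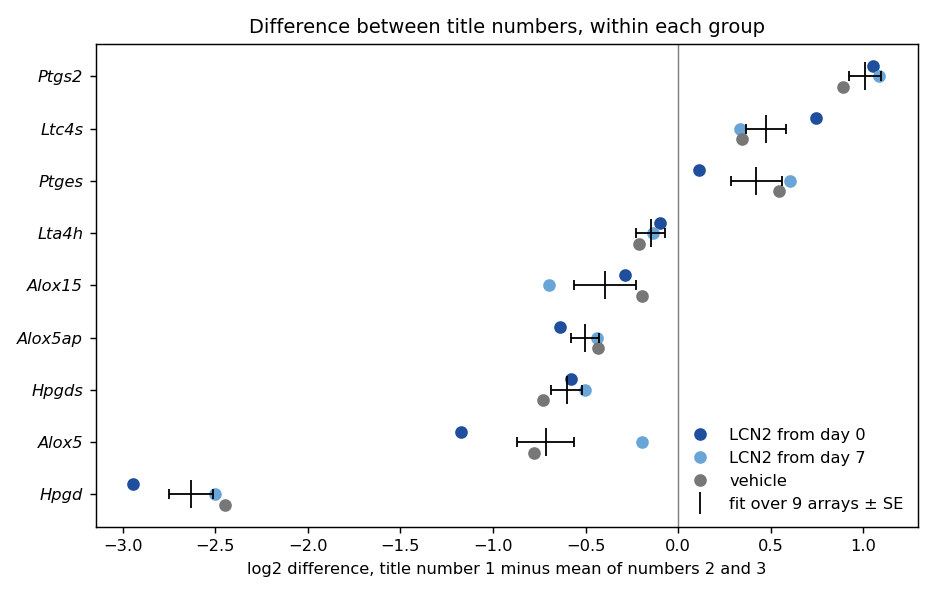
Log2 difference of title number 1 minus the mean of numbers 2 and 3 (horizontal axis) for each enzyme gene, with 1 point per group and a black mark for the value fitted over the 9 arrays ± SE. Ptgs2 and Ltc4s lie above 0 and Hpgd, Alox5, Hpgds and Alox5ap below 0 in all 3 groups, with Hpgd between -2.94 and -2.45.

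The upstream sequences of 4 genes that differed between title numbers, a pair in each direction, are shown so that their promoters can be compared. Each is the 250 bases before the RefSeq start of transcription (GRCm38.p6), 5′ to 3′ on the gene's strand, with capitals on GAGGAA, the core that the macrophage factor PU.1 recognises, read on both strands. Hpgd and Hpgds were lower and Ptgs2 and Ltc4s higher on the arrays numbered 1.
Hpgd, chr8:56294302-56294551, + strand: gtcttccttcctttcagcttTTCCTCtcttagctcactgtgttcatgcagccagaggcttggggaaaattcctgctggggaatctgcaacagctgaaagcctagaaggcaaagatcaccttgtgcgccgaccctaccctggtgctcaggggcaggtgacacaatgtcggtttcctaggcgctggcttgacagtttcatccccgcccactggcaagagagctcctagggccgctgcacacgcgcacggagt
Hpgds, chr6:65144731-65144980, - strand: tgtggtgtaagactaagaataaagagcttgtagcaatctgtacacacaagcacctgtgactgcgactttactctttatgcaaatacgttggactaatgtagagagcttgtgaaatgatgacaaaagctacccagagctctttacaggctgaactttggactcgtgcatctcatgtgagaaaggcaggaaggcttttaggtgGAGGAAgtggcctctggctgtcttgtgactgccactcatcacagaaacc
Ptgs2, chr1:150099781-150100030, + strand: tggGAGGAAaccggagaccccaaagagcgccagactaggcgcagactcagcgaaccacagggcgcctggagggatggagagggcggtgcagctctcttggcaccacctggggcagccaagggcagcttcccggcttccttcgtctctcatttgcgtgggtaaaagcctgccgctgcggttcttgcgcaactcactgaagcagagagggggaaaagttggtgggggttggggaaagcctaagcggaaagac
Ltc4s, chr11:50238533-50238782, - strand: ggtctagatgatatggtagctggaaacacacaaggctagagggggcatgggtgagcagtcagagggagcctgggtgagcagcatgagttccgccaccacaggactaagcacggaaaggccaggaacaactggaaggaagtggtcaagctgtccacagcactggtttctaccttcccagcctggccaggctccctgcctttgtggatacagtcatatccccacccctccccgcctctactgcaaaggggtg
RefSeq had such a window for 8 of the 10 genes, and 7 of the 8 held GAGGAA, against 23.3% of 32851 promoter windows of the same length. The 7 were Alox5, Lta4h, Ptgs1, Ptgs2, Ptges, Hpgds and Hpgd, so genes that were higher and genes that were lower on number 1 were both among them. The first base of the match lay 230 bases before the start in Hpgd, where it is on the opposite strand, 49 in Hpgds and 247 in Ptgs2. The Ltc4s window held none of the 4 motifs searched. The motif of the IL-4 factor STAT6, TTC followed after 4 bases by GAA, occurred in the window of Ptges alone (5.85% of all windows), with no overlap with its GAGGAA, while CGTCA (17.8%) and TATAAA (12.4%) occurred in none of the 8. Bases after the RefSeq start were not part of the windows, so a motif there would be missed. The motifs were chosen after the levels were seen, and a match is a string of letters, not a shown binding site.

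To set synthesis against breakdown, the level of Hpgd was subtracted from that of Ptgs2 within each array, and the mean over the 9 arrays was then taken off. The result was 2.50, -1.67 and -1.32 on arrays 1, 2 and 3 of LCN2 from day 0, 2.58, -0.84 and -1.19 for LCN2 from day 7, and 2.21, -1.27 and -0.99 for vehicle. All 3 arrays numbered 1 lay above 0 and the other 6 below it, a step of 3.64. The 8 synthesis genes include Alox15, Alox5, Alox5ap, Lta4h and Ltc4s, which belong to the lipoxygenase branches and not to prostaglandin synthesis. With the mean of all 8 in place of Ptgs2 the step was 2.57, close to that of Hpgd itself. This mean minus Hpgd differed between LCN2 from day 0 and vehicle by -0.32 ± 0.29 (SD over 3 same-number pairs of -0.02, -0.60 and -0.35), and between LCN2 from day 7 and vehicle by 0.17 ± 0.24, both far smaller than the step between title numbers. A difference between probe sets within an array shows unequal change and gives no amount of prostaglandin.

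**Figure D3:**
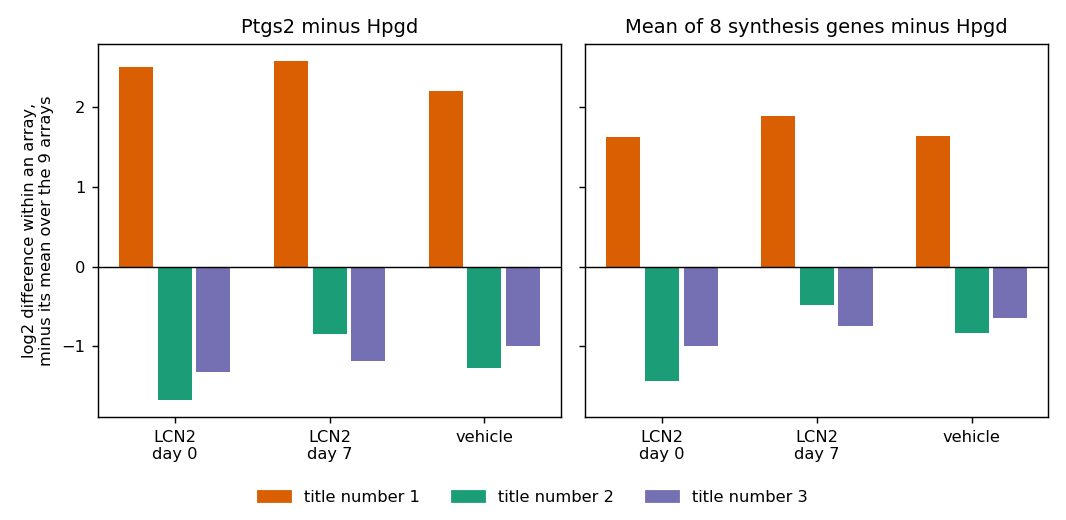
Log2 level of Ptgs2 (left) or of the mean of 8 synthesis genes (right) minus that of Hpgd on each array, less its mean over the 9 arrays, with groups along the horizontal axis and colour for the title number. Every bar of number 1 is above 0 and every other bar below 0, in all 3 groups.

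Whether enzyme levels differed when LCN2 was present while the cells became macrophages was read from LCN2 from day 0 against vehicle. All 7 enzymes that passed the filter had a mean above that of vehicle, with a median difference of 0.25 on the log2 scale, where the median of all genes tested was -0.01. The largest were Hpgd at 0.46, Hpgds at 0.36 and Ptgs2 at 0.31. Hpgds averaged 10.27 ± 0.34 with LCN2 from day 0 and 9.92 ± 0.42 with vehicle (SD, n = 3 each), and the groups overlapped. Groups overlapped for all 9 enzymes.

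Within title numbers 1, 2 and 3, Hpgds differed by 0.45, 0.40 and 0.21, Ptgs2 by 0.42, 0.37 and 0.15, and Hpgd by 0.13, 0.77 and 0.47. These 3 of 7 were higher in every same-number pair, as were 11.8% of all genes tested. By contrast, 0 of 7 were lower in every pair, against 15.4%. For numbers 2 and 3 the pairs rest on the titles alone, since the levels did not single these pairs out. Ltc4s had most of its difference of 0.16 in number 1 (0.42, -0.04 and 0.09), and Alox5 had its difference of 0.25 in numbers 2 and 3 (-0.01, 0.35 and 0.41). Alox5ap and Lta4h differed by 0.02 and 0.07, and the dim Alox15 and Ptges by -0.01 and -0.07.

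Limma called 0 of the 7 enzymes and 0% of 10042 genes in this comparison. At an unadjusted p under 0.05 there were 0 of 7 enzymes and 1.41% of all genes. With the title number as a block there were 3 of 7 (Hpgd, Hpgds and Ptgs2) and 4.95%, again with 0 called. The enzymes were chosen on their levels by group and title number, so these counts describe them and add no support. The block also treats same-number arrays as matched, while the levels set apart number 1 alone. The block moved the SE from 1.02 to 0.14 for Hpgd, from 0.25 to 0.10 for Hpgds and from 0.40 to 0.11 for Ptgs2. Leaving out 1 array or 1 title number gave values between -0.36 and 1.44 for Hpgd, -0.04 and 0.61 for Ptgs2, -0.01 and 0.64 for Alox5, -0.09 and 0.32 for Ltc4s, -0.12 and 0.24 for Alox5ap, and 0.11 and 0.55 for Hpgds, since leaving out 1 array makes the numbers unequal between groups. The mean level of 13 neutrophil markers ran from 6.30 to 7.35 with LCN2 from day 0 and from 5.98 to 7.04 with vehicle, and that of 5 monocyte markers from 6.62 to 8.12 with LCN2 from day 0 and from 6.50 to 7.91 with vehicle. Their part in these differences was not tested.

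**Figure D4:**
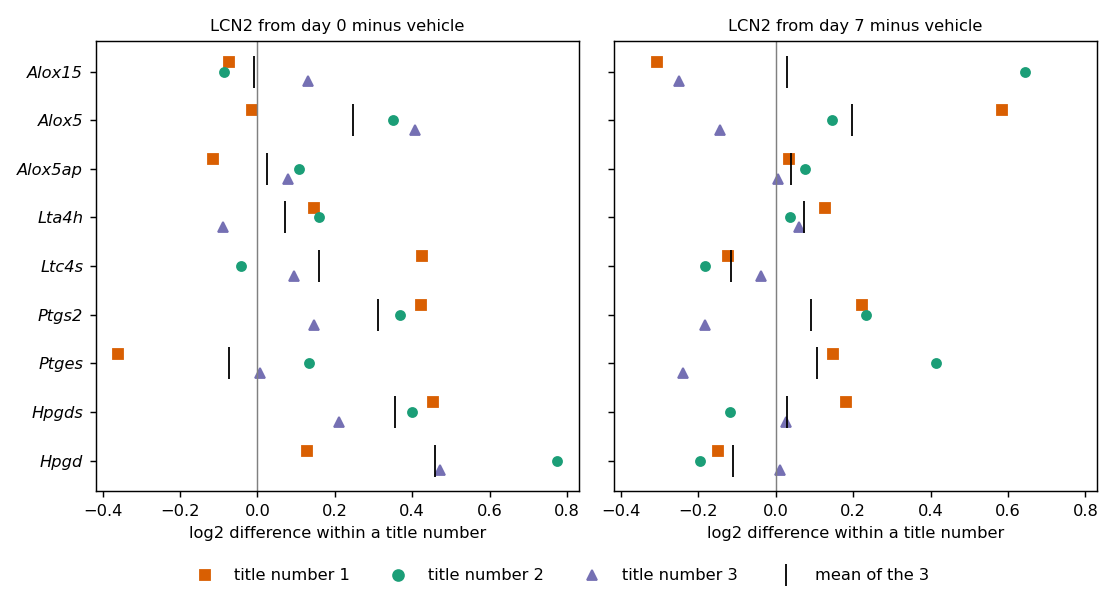
Log2 difference of LCN2 from day 0 minus vehicle (left) and of LCN2 from day 7 minus vehicle (right) for each enzyme gene, with a point for each title number and a black mark for the mean of the 3. The 3 points of Hpgds, Ptgs2 and Hpgd lie above 0 on the left, and on the right those of Hpgds run from -0.12 to 0.18.

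LCN2 from day 7 was compared with vehicle to see which enzymes differed when LCN2 was present only from day 7. The 7 enzymes had a median difference of 0.04, against 0.00 for all genes tested, and limma called 0 of them and 0% of all genes (0 of 7 and 0.697% at an unadjusted p under 0.05; with the number as a block 0 of 7 and 2.58%). Hpgd differed by -0.11, Hpgds by 0.03 and Ptgs2 by 0.09. Ltc4s was lower in every same-number pair (-0.12, -0.18 and -0.04), as were 10.3% of all genes, and Alox5ap and Lta4h were higher in every pair by at most 0.13, as were 11.4%. The largest mean difference was that of Alox5 at 0.20, which number 1 gave (0.59, 0.15 and -0.14). Leaving out 1 array or 1 title number gave values on both sides of 0 for 6 of the 7, with Hpgd between -0.93 and 0.72, and for Lta4h values above 0. The mean level of 5 monocyte markers ran from 7.10 to 8.25 with LCN2 from day 7 and from 6.50 to 7.91 with vehicle, and that of 13 neutrophil markers from 6.46 to 7.19 with LCN2 from day 7 and from 5.98 to 7.04 with vehicle. Of 18 cell cycle genes, 17 had a higher mean with LCN2 from day 7 than with vehicle, by a median of 0.16, and 0 were called. The part of these genes in the differences was not tested.

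The 2 LCN2 groups were then set side by side, with the start, length and perhaps dose of exposure differing together. Hpgd was 0.57 higher with LCN2 from day 0 than from day 7 (0.28, 0.97 and 0.46 within the numbers), Hpgds 0.32 (0.27, 0.52 and 0.18), Ltc4s 0.27 (0.55, 0.14 and 0.13) and Ptgs2 0.22 (0.20, 0.14 and 0.33). These 4 of 7 were higher in every same-number pair, as were 8% of all genes tested, and 0 of 7 were lower in every pair, against 12.9%. Leaving out 1 array or 1 title number gave values between -0.27 and 1.55 for Hpgd, -0.13 and 0.58 for Ptgs2, 0.16 and 0.52 for Hpgds, and 0.03 and 0.44 for Ltc4s. Limma called 0 of 7 and 0% of all genes (0 of 7 and 1.76% at an unadjusted p under 0.05; with the block 3 of 7 and 5.37%). These contrasts, too, were used to choose the genes, so the counts describe them and add no support. The 3 comparisons share arrays, so their values are not independent.

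By group mean, the order of Hpgd and Ltc4s was LCN2 from day 0, vehicle, LCN2 from day 7, and that of Hpgds, Ptgs2 and Alox5 was LCN2 from day 0, LCN2 from day 7, vehicle. Alox5ap and Lta4h had LCN2 from day 7 first, then LCN2 from day 0, then vehicle. For each of the 9 enzymes the whole span of group means was smaller than the pooled SD within groups, so no neighbours in these orders differed beyond the spread within groups, which holds the step between title numbers. Within same-number pairs the spread was smaller, and Hpgd, Hpgds, Ltc4s and Ptgs2 were higher with LCN2 from day 0 than from day 7 in all 3 pairs, by the values above. The spans ran from 0.04 for Alox5ap and Alox15 to 0.57 for Hpgd, whose pooled SD was 1.53.

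The rest of the eicosanoid pathway was read from 7 lists of 97 genes, drawn up with earlier results of these data known. Of these, 84 had a probe set and 46 passed the filter. Between treatment groups limma called 0 of 46 in each of the 3 comparisons, and without the block 0 had an unadjusted p under 0.05 as well. With the block 0 were called at an adjusted p under 0.05, and genes at an unadjusted p were not counted for it. Between title numbers it called 31 of 46 (67.4%), 20 higher and 11 lower on number 1, where 35.5% of all genes tested were called, 11.9% higher and 23.6% lower. The count was 16 without vehicle replicate 1 and 19 without LCN2 day 0 replicate 1. In these settings 2122 and 2260 of all 10042 genes tested were called, against 3565 in the main fit.

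Of 14 genes tested that release or activate arachidonic acid, limma called 7 higher and 2 lower on number 1, against 11.9% and 23.6% of all genes tested. In all, 11 of the 14 lay above 0, with a median of 0.28. Pla2g4a, the cytosolic phospholipase that supplies most arachidonic acid for eicosanoids, differed by -1.35 ± 0.19 (log2, SE), a level 2.55-fold lower on number 1 (limma, adjusted p = 0.000895). Pla2g5, a secreted phospholipase, was lower too, by -0.54 ± 0.11 (SE), and the calcium-independent Pla2g6 was higher by 0.57 ± 0.13. Pla2g7, which degrades platelet-activating factor and oxidised phospholipids, was 3.60-fold higher on number 1 (limma, adjusted p = 0.000207).

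Pla2g7 also had the largest difference of the 46 between LCN2 from day 0 and vehicle, at -1.14 ± 0.74 (SE, n = 3 per group). It read 9.53, 6.89 and 7.12 on arrays 1, 2 and 3 of LCN2 from day 0, against 10.20, 8.38 and 8.39 on those of vehicle. Each array of the day 0 group was below its same-number array of vehicle, but the groups overlapped, and the difference did not pass (limma, adjusted p = 0.999, and 0.678 with the number as a block, which gave an SE of 0.24). Daglb, a lipase that makes an arachidonate-bearing endocannabinoid, had the next largest value of its list, at -0.31 ± 0.17.

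Among the other prostanoid synthases, limma called 2 of 7 higher on number 1 and 0 lower, against 11.9% and 23.6% of all genes tested. By sign alone, 5 lay above 0 and 2 below it. The 2 called were the carbonyl reductases Cbr3 (0.51 ± 0.14, SE) and Cbr1 (0.37 ± 0.08). Tbxas1, the thromboxane synthase, was bright and differed by 0.07 ± 0.08. Between LCN2 from day 0 and vehicle the largest values were those of Ptges2 at -0.42 ± 0.33 and Prxl2b at 0.22 ± 0.23.

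Of 8 other lipoxygenase and leukotriene enzymes, limma called 4 higher and 2 lower on number 1, against 11.9% and 23.6% of all genes tested. Gpx4, the peroxidase that reduces lipid hydroperoxides, averaged 10.70 ± 0.08 on number 1 and 10.00 ± 0.07 on the others (SD), and was 1.63-fold higher (limma, adjusted p = 0.000265). The cytochromes Cyp4f13 (0.68 ± 0.14, SE) and Cyp4f18 (0.50 ± 0.09), the second of which inactivates leukotriene B4 in mouse neutrophils, were higher, and Cyp4f16 was lower (-0.57 ± 0.14). Cyp4f18 and Cyp4f13 also had the largest values of the list between LCN2 from day 0 and vehicle, at -0.30 ± 0.22 and -0.24 ± 0.31, neither past the threshold. Of the epoxide branch, the epoxygenase Cyp2j6 and the epoxide hydrolase Ephx1 were tested. Limma called both higher on number 1, by 0.61 ± 0.17 and 0.42 ± 0.10, where 11.9% of all genes tested were called higher. Between LCN2 from day 0 and vehicle they differed by -0.35 ± 0.31 and 0.18 ± 0.20.

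Of 6 other genes of breakdown and transport that were tested, limma called 4 lower and 1 higher on number 1. Of all genes tested, 23.6% were called lower and 11.9% higher. Their median difference was -0.36, against -0.06 for all genes tested. Ptgr1 and Ptgr2, reductases that act after Hpgd on its products, were lower by -0.26 ± 0.09 and -0.48 ± 0.15 (SE). The exporters Abcc1, of leukotriene C4, and Abcc4, of prostaglandins, were lower by -0.47 ± 0.09 and -0.45 ± 0.10, and the carrier Slco3a1 was higher by 0.53 ± 0.11. In size these differences were far below that of Hpgd at -2.63. Between LCN2 from day 0 and vehicle, Abcc4 differed by 0.22 ± 0.21 and Ptgr1 by 0.18 ± 0.15.

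Of 7 prostanoid receptor genes tested, limma called 3 higher and 2 lower on number 1, against 11.9% and 23.6% of all genes tested. Ptger2 and Ptger4, the prostaglandin E2 receptors that raise cyclic AMP, were higher by 1.00 ± 0.12 and 0.69 ± 0.11 (SE), along with Ptgfrn, a regulator of the prostaglandin F receptor, at 1.23 ± 0.12. Pparg, a nuclear receptor that prostaglandin D2 products can activate, was lower by -0.61 ± 0.09, and Ptgir, the prostacyclin receptor, by -0.32 ± 0.10. Both leukotriene or lipid mediator receptors that were tested were called between numbers, as were 35.5% of all genes tested. Cysltr1, which binds the cysteinyl leukotrienes made through Ltc4s, was 1.83-fold lower on number 1 (limma, adjusted p = 0.000347), and Cmklr1, the chemerin receptor, was 2.28-fold higher (limma, adjusted p = 0.000118). Ltc4s and the receptor for its products thus ran in opposite directions. Between LCN2 from day 0 and vehicle, Ptgfrn differed by 0.52 ± 0.49, Ptger4 by -0.31 ± 0.30, Cmklr1 by -0.46 ± 0.47 and Cysltr1 by -0.18 ± 0.36, none past the threshold.

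**Figure D5:**
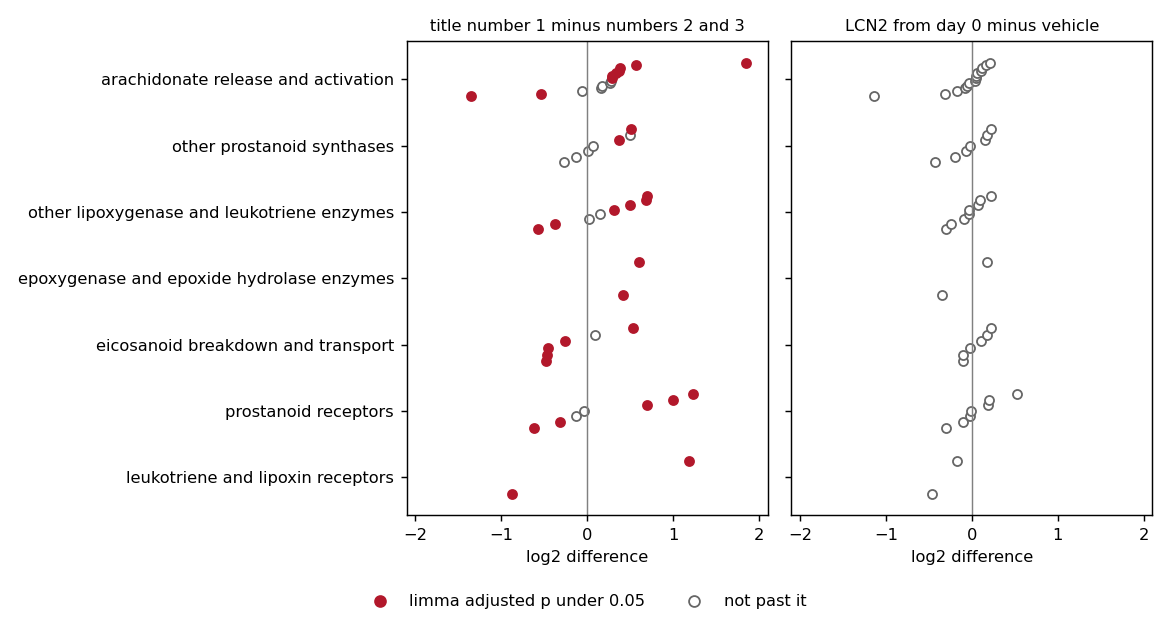
Log2 differences of the 46 tested genes of 7 eicosanoid pathway lists (rows) between title number 1 and numbers 2 and 3 (left) and between LCN2 from day 0 and vehicle (right), 1 point per gene, filled where the limma adjusted p was under 0.05. On the left 31 points are filled, with Pla2g7 at 1.85 and Pla2g4a at -1.35 farthest out, and on the right 0 are.

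The genes whose profile over the 9 arrays was most like that of an enzyme were taken from all genes tested, by the smallest root-mean-square difference of levels centred on their own mean. For Hpgd they were Gm5150 (0.27), the monocyte chemokine receptor gene Ccr2 (0.35) and Rnf144b (0.35), each in log2 units. Ccr2 averaged 6.30 on the arrays numbered 1 and 8.69 on the others. For Ptgs2 they were the metalloproteinase inhibitor gene Timp2 (0.12), the neuropeptide gene Npy (0.12) and Mgst1, a membrane glutathione transferase (0.12). For Hpgds they were Thbd, which encodes thrombomodulin (0.07), Gmds (0.07) and Kitl, the ligand of the receptor Kit (0.10). For Alox5 they were the chemokine gene Ccl7, Snx2 and Ube2c (0.09 each), and for Alox15 Dffa, Rad51d and Zfp961 (0.10 to 0.11). These 9 points share their arrays and the step between title numbers, so many genes with that step lie close to one another.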

How the data were processed

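RNA was labelled with biotin after amplification, per the labels' protocols. The deposited table holds log2 levels for 22203 probe sets on 9 arrays. Per the submitters' processing notes the authors made them by RMA in oligo, an R package, and the versions are not given in the sources used here. RMA corrects background, equalises the arrays' distributions and summarises probes, so a change shared by most genes would not show. The array medians ran from 5.60 to 5.69. Arrays carry no counts, and their number limits the precision.

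Platform annotation gave 1 symbol to 19572 probe sets and none to 2631. The probe set with the highest mean was kept for genes with several, and the filter left 10042 genes. Limma 3.58.1 (R 4.3.3) was fitted to all 9 arrays with 1 mean per group, with Benjamini-Hochberg adjustment over all genes tested and a threshold of 0.05. The contrast of title numbers had the group as a factor. Dim members have their errors from a fit without the filter. The fit was tested on simulated data, drawn for each array on its own without a step between title numbers. That test therefore does not cover arrays with such a step. Deviations from the group mean correlated at 0.16 to 0.82 in all 9 pairs of arrays with the same title number. The number was therefore also used as a block. However, an array numbered 2 resembled arrays numbered 3 of another treatment about as closely, with coefficients of 0.20 to 0.69. Limma called 0 genes between numbers 2 and 3. The correlations thus set number 1 apart and do not show that numbers 2 and 3 are matched across groups.

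Members and lists were chosen with earlier results of these data known. Named outside the members are, per list, up to 4 genes past the threshold with the largest difference between title numbers, the 2 with the largest difference between LCN2 from day 0 and vehicle, and 3 genes of like profile for Alox15, Hpgd and members with a range of at least 1; Tbxas1 and Ptgir were added after their values were seen. Alternatives were the filter, normalization, variance trend, probe set, block and arrays left out.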

Additional observations from a re-analysis of the deposited data

How the results depend on the processing

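The comparisons of LCN2 from day 0 with vehicle, of LCN2 from day 7 with vehicle and of the 2 LCN2 groups gave 0 genes called by limma in each of 24 alternatives, with 59 to 806, 18 to 735 and 106 to 1021 genes at an unadjusted p under 0.05. They include the replicate block, which called 0 genes and changed no call, and 4 settings chosen after seeing the data, which joined the block with no filter or with a title number left out. The count between title numbers, 3565 genes, ran from 2122 to 3999 when 1 array was left out, at 2122 without vehicle replicate 1 and 2260 without LCN2 day 0 replicate 1, and from 3027 to 3843 over the other 7 alternatives. The differences of the members between title numbers kept their sign in all 107 values. Between groups the sign changed in 12 of 165 values for LCN2 from day 0 against vehicle, 15 of 165 for LCN2 from day 7 against vehicle and 22 of 165 between the LCN2 groups. Many of these values and of the 107 could not differ from the main one. The filter, variance trend, probe set and block leave a member's difference as it is, as does leaving out arrays of a group not compared. The counts therefore make the signs look steadier than they are. By more than the SD within groups, 0 values moved. That SD holds the step between title numbers and exceeds the span of group means for every member, so few shifts could pass it. The step of synthesis minus Hpgd was 2.55 with the 6 synthesis genes that passed the filter. Dim genes such as Ptges and Alox15, Hpgd and Alox5 on arrays numbered 1, and Ptgs2 on arrays numbered 2 and 3, have no stated background level here, so a true fold may be larger than the one given.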
